A study of Mus musculus with 27 samples.

Results

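The 28 genes described here encode enzymes that build cholesterol and long-chain fatty acids, together with regulators that set the level of those enzymes. They were chosen by symbol and not by any measured value, and all 28 were found among the 19069 named genes of the deposited table. The mevalonate and isoprenoid steps are covered by 8 of them (Acat2, Hmgcs1, Mvk, Pmvk, Mvd, Idi1, Fdps and Ggps1). The steps that make squalene and turn it into cholesterol are covered by 11 (Fdft1, Sqle, Lss, Cyp51, Tm7sf2, Msmo1, Nsdhl, Hsd17b7, Ebp, Sc5d and Dhcr7). Regulation and sterol transport are covered by 4 (Srebf1, Srebf2, Insig1 and Stard4) and fatty acid synthesis by 5 (Acly, Acaca, Fasn, Elovl6 and Scd2). All 28 reached at least 1 CPM (reads relative to the size of the library, scaled between libraries by the authors) in each of the 27 libraries, so all 28 were tested.

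The libraries are bulk RNA sequencing of macrophages that were grown in culture from the bone marrow of C57BL/6 mice. The marrow cells received 5 Gy of FLASH proton irradiation, in which the dose is delivered at an ultra-high rate, or 5 Gy of standard proton irradiation, or no irradiation. All groups were then cultured for 7 days with the macrophage growth factor CSF-1 at 10 ng/ml. For a further 2 days they were kept with the bacterial wall component LPS at 100 ng/ml (the M1 state), with the cytokine IL-4 at 20 ng/ml (the M2 state) or in control medium (the M0 state). Each of the 9 combinations has 3 libraries: FLASH M1, M2 and M0, standard M1, M2 and M0, and non-irradiated M1, M2 and M0. The dose was given to the marrow cells before macrophages had formed, and all control groups carry the same CSF-1 treatment. All 9 groups were also cultured with 5% fetal bovine serum (FBS). Whether replicates came from separate animals or cultures, and the age of the mice, are not given in the sources used here, so the p-values measure only the spread between these libraries. In bulk RNA, fewer cells of a type and less RNA per cell cannot be told apart.

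Cholesterol is made from acetyl-CoA by way of mevalonate, farnesyl diphosphate, squalene and lanosterol, and the same acetyl-CoA feeds fatty acid synthesis. The genes of both routes are switched on by the SREBP transcription factors: SREBP-2 (Srebf2) acts mainly on the sterol enzymes and SREBP-1 (Srebf1) mainly on the fatty acid enzymes. When sterols are plentiful, INSIG proteins hold the SREBPs and their escort SCAP in the endoplasmic reticulum. When sterols run low, the SREBPs are moved to the Golgi and cut, and the freed part enters the nucleus. In macrophages the pathway is known to answer to inflammatory signals as well as to sterol supply.

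The depth recovered from the step between values was 20.7 to 25.8 M assigned reads per library. Each of 12 core macrophage markers was above 1 CPM in all 27 libraries, which shows their presence and not the purity of the cultures. Some markers of other cells also stayed above 1 CPM in all 27. Their lowest values were 16.6 CPM for Mmp8 (neutrophil lineage), 28.3 CPM for Pf4 (megakaryocyte) and 2.07 CPM for Col1a1 (stromal). Of the adipocyte markers, Plin1 and Cidec were under 1 CPM in all 27 libraries, Adipoq in 24 and Plin4 in 11, with up to 7.02 CPM of Plin4. Cdkn1a, a target of the damage-responsive factor p53, had 478 to 858 CPM in the 18 irradiated libraries, against 168 to 353 CPM in the 9 non-irradiated libraries. The response genes of LPS and of IL-4 went against the label in 5 libraries, all of them irradiated and numbered replicate 1: FLASH M1, FLASH M2, FLASH M0, standard M1 and standard M2. On a scale where 0 is non-irradiated M0 and 1 is non-irradiated M1, the libraries labelled FLASH M2 and standard M2 had LPS response positions of 1.06 and 1.12, and the library labelled FLASH M1 had a position of -0.195. On the matching scale for IL-4, the libraries labelled standard M1 and FLASH M0 had positions of 0.758 and 0.686. These libraries were kept under their labels, no library was moved to another group, and the counts and calls of the 28 genes that they enter are also given without them.

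In 4 of those 5 libraries the median of the 28 genes stood outside the range of the labelled state. In the library labelled FLASH M0 the median stood inside it, but Scd2 at 406 CPM and Dhcr7 at 111 CPM were above every M0 library that follows its label. Relative to the non-irradiated M0 mean, the median log2 difference over the 28 genes was -0.85 in the library labelled FLASH M2 and -0.92 in the library labelled standard M2. It was 0.13 in the library labelled FLASH M1, 0.26 in the library labelled standard M1 and 0.22 in the library labelled FLASH M0. In the 22 libraries that follow their labels, the same median ran from -1.07 to -0.63 in the 7 M1 libraries, from -0.35 to 0.75 in the 7 M2 libraries and from -0.08 to 0.35 in the 8 M0 libraries. The M1 range therefore stood clear of the others, and the M2 and M0 ranges overlapped.

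**Figure D1:**
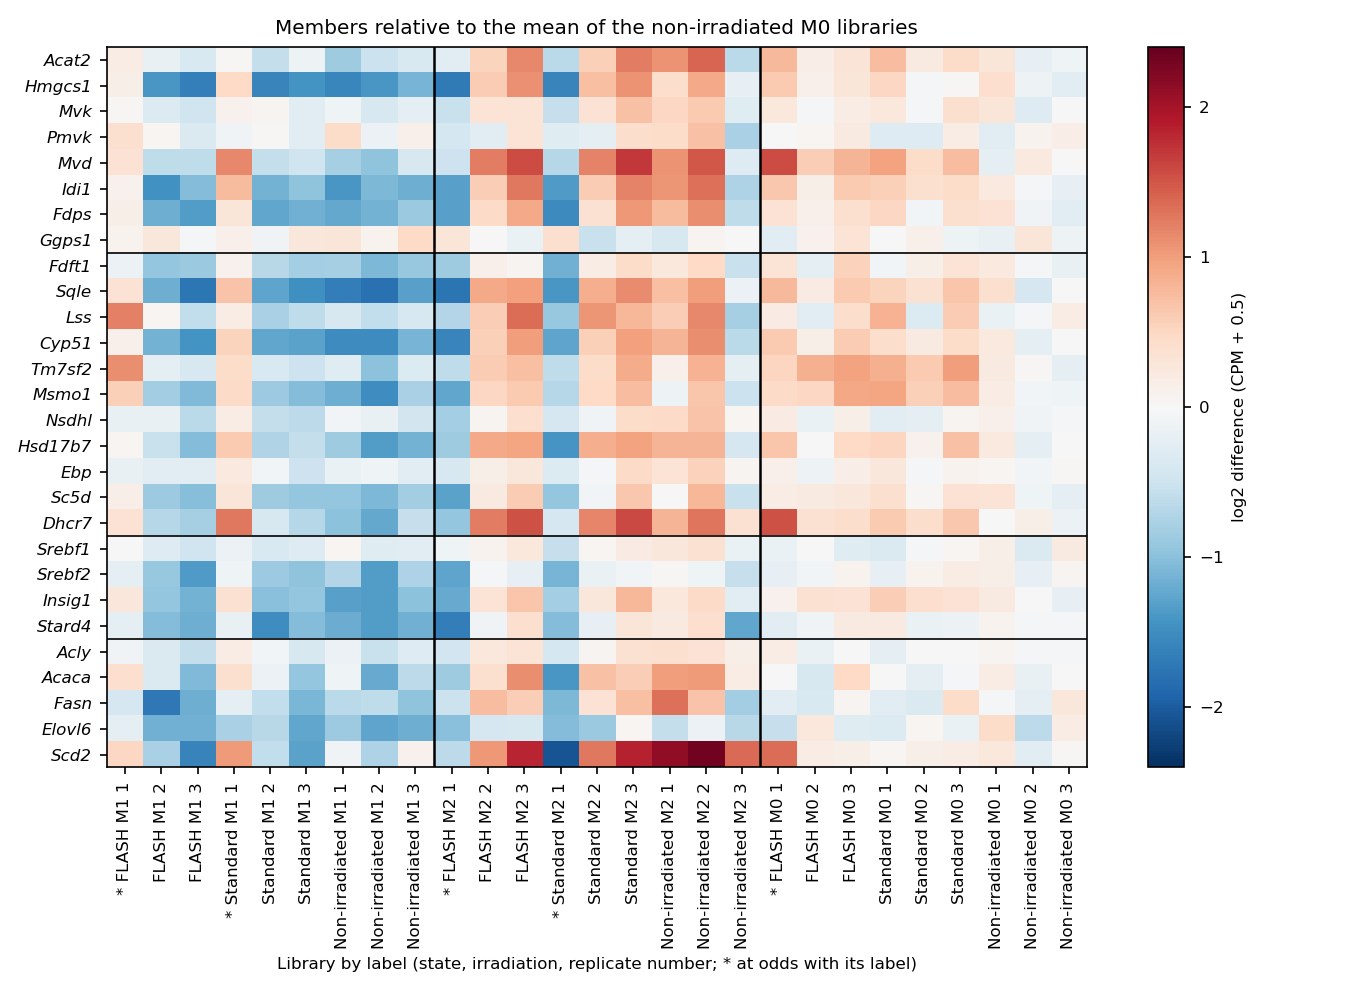
Each cell is the log2 difference (CPM + 0.5) of one gene in one library from the average of non-irradiated M0 (3 libraries), with M1, M2 and M0 libraries from left to right, FLASH, standard and non-irradiated within each state, and a star on each of the 5 libraries at odds with their labels. The M1 libraries without a star are mostly blue, with medians of -1.07 to -0.63, and the starred libraries labelled M2 are blue as well, with medians of -0.85 and -0.92.

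The first comparison sets LPS against control medium in cells that were not irradiated. Of the 28 genes, 12 fell with LPS and none rose. In the same limma test 14.1% of all 12429 tested genes fell, 15.6% rose and 29.8% changed in either direction. The log2 fold change had a median of -0.83 over the 28 genes and of -0.01 over all tested genes, and it was negative in 26 of the 28. All 3 M1 libraries lay below all 3 M0 libraries in 21 of the 28 genes, against 23.3% of all tested genes. All fold changes are on the log2(CPM + 0.5) scale, and a gene was counted as changed at an adjusted p below 0.05.

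In the mevalonate steps 1 of 8 genes fell. Hmgcs1, the synthase that makes HMG-CoA, had 43.5, 48.8 and 59.4 CPM in the M1 libraries, against 170, 118 and 107 CPM in the M0 libraries. The highest M1 library was well under the lowest M0 library, and the fold change was -1.36 (SE 0.27, adjusted p = 0.00498). Further along, Idi1 (isopentenyl diphosphate isomerase) and Fdps (farnesyl diphosphate synthase) had fold changes of -1.21 and -1.09 and missed the threshold at adjusted p = 0.0679 and 0.0565. Their M1 libraries were nonetheless all below their M0 libraries: Idi1 had 18.5, 23.3 and 21.8 CPM in M1, against 58.1, 48.4 and 43.2 CPM in M0. The kinase gene Pmvk and the geranylgeranyl diphosphate synthase gene Ggps1, which serves protein prenylation and not sterol synthesis, had fold changes of 0.14 and 0.28 and were not called.

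From squalene onwards 7 of 11 genes fell. Sqle, the squalene epoxidase that carries out a rate-controlling step, had 21.6, 19.5 and 27.6 CPM in the M1 libraries, against 90.2, 52.1 and 69.5 CPM in the M0 libraries. The groups did not overlap, and the fold change of -1.58 (SE 0.30, adjusted p = 0.00368) was the largest fall among the 28 genes. Cyp51, the lanosterol demethylase, had 25.9, 26.1 and 34.2 CPM in M1, against 88.3, 63.8 and 73.8 CPM in M0, a fold change of -1.37 (adjusted p = 0.0247). Msmo1 (methylsterol oxidase, -1.15, adjusted p = 0.0135) and Hsd17b7 (a sterol ketone reductase, -1.11, adjusted p = 0.024) followed it. The squalene synthase gene Fdft1 (-0.93, adjusted p = 0.0208), the desaturase gene Sc5d (-0.95, adjusted p = 0.0349) and the last-step reductase gene Dhcr7 (-0.92, adjusted p = 0.0168) fell by similar amounts. Lss, Tm7sf2, Nsdhl and Ebp had negative fold changes of -0.45, -0.53, -0.24 and -0.18 that did not pass.

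Among the regulators 3 of 4 genes fell. Insig1, itself a target of the SREBPs, had 35.9, 35.4 and 45.0 CPM in the M1 libraries, against 105, 88.8 and 78.1 CPM in the M0 libraries. Each M1 library was below each M0 library, and the fold change was -1.21 (SE 0.19, adjusted p = 0.00134). Srebf2 had 111, 71.3 and 109 CPM in M1, against 199, 158 and 189 CPM in M0, again without overlap (-0.93, SE 0.20, adjusted p = 0.0077). Stard4, a carrier that moves sterol between membranes, fell by 1.23 on the log2 scale (adjusted p = 0.0287). Srebf1 had 87.8, 68.9 and 70.5 CPM in M1, against 93.2, 66.9 and 98.0 CPM in M0. Its groups overlapped and its fold change of -0.17 (95% confidence interval -0.59 to 0.24) did not pass (adjusted p = 0.529).

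In fatty acid synthesis 1 of 5 genes fell. Elovl6, the elongase that extends palmitate, had 4.70, 3.48 and 3.73 CPM in the M1 libraries, against 12.5, 5.66 and 10.4 CPM in the M0 libraries (-1.10, SE 0.29, adjusted p = 0.0181). Fasn, the fatty acid synthase, had 12.2, 12.5 and 9.75 CPM in M1, against 18.9, 16.5 and 23.4 CPM in M0. The groups were apart, but the fold change of -0.74 had a wide interval (-1.74 to 0.27) and did not pass (adjusted p = 0.248). Acly (citrate cleavage) and Acaca (malonyl-CoA synthesis) had fold changes of -0.33 and -0.65 at adjusted p = 0.0689 and 0.131. Scd2, a desaturase that makes monounsaturated fatty acids, had 150, 95.1 and 172 CPM in M1, against 190, 131 and 162 CPM in M0, and its groups overlapped (-0.24, adjusted p = 0.568).

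**Figure D2:**
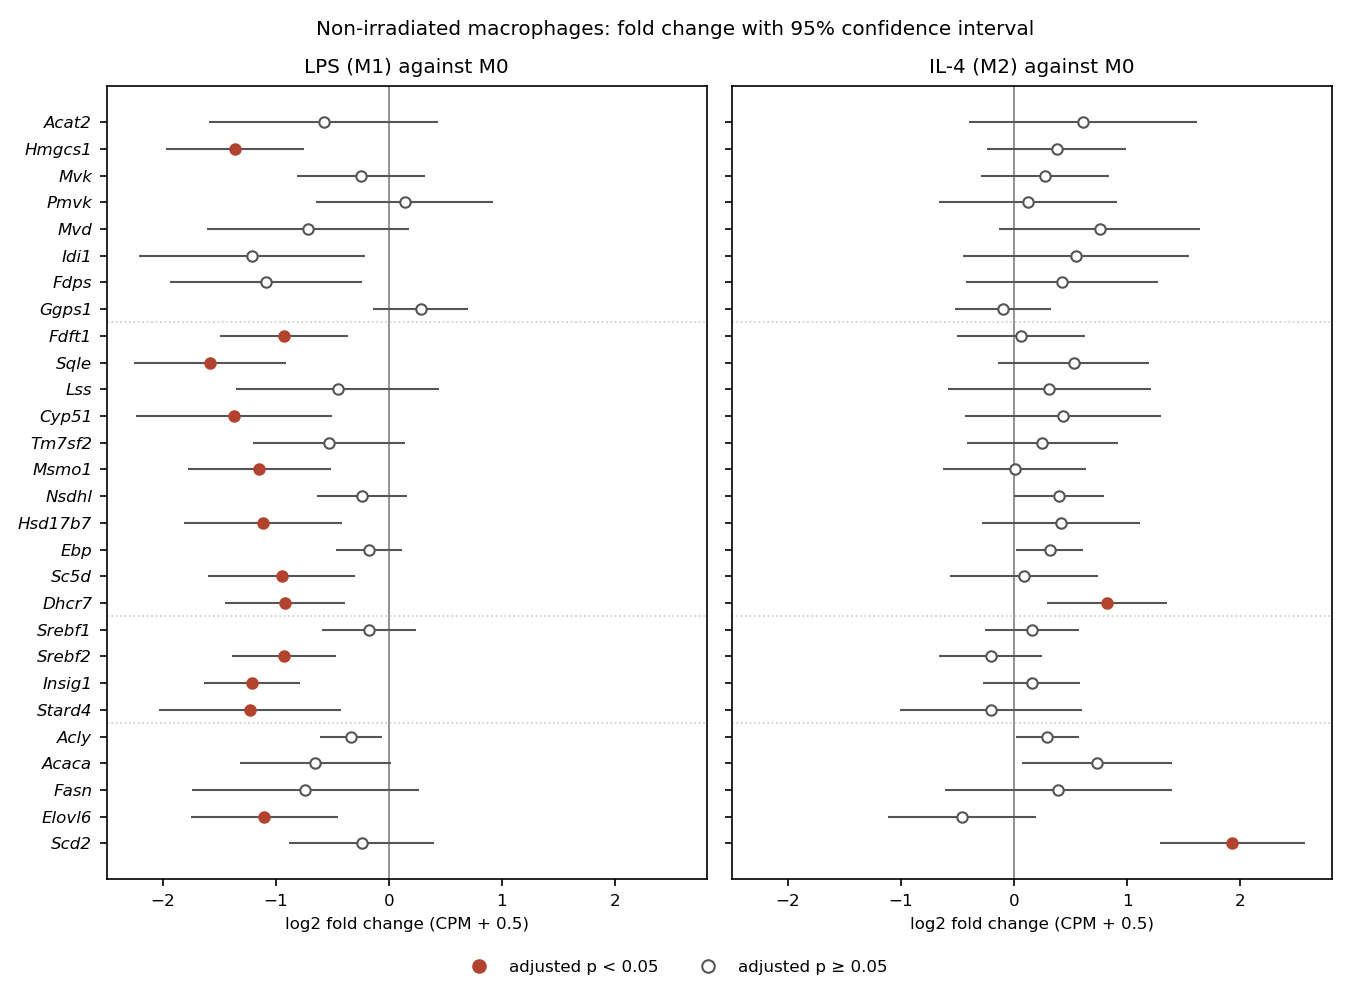
Points are log2 fold changes (CPM + 0.5) of the 28 genes in the 9 non-irradiated libraries, 3 per state, with 95% confidence intervals. The left panel sets M1 against M0 and the right panel M2 against M0. Dotted lines part the 4 roles. Filled points passed the limma test, 12 with LPS, all to the left of 0, and 2 with IL-4, both to the right.

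The count of 12 depended on single libraries. Leaving out M0 replicate 1 gave 4 called genes, and leaving out M0 replicate 3 gave 7. Leaving out M1 replicate 2 gave 4 as well, and M1 replicate 3 gave 7. It was 15 in a fit of the 22 libraries that follow their labels, where Idi1, Fdps and Acly passed too, and 1 (Elovl6) in a fit of all 27. Over all tested genes, 35% were called in either direction in the fit of the 22. The fit of all 27 called 2315 genes, against 3699 in the main fit. Beside the fall in these genes, the summed level of 18 proliferation genes was 515 to 622 CPM in the M1 libraries, against 949 to 1373 CPM in the M0 libraries, with 1 of 18 called lower. The summed level of 13 neutrophil lineage markers was 265 to 390 CPM in M1, against 614 to 1172 CPM in M0, with 2 of 12 tested genes called lower. Dendritic cell markers summed to 40.3 to 80.1 CPM in M1, against 204 to 541 CPM in M0, and erythroid and megakaryocyte markers to 74.9 to 122 CPM in M1, against 131 to 202 CPM in M0, each with 1 gene called lower. Both sums rest largely on single genes. Over the 27 libraries Itgax reached 2533 CPM, and Ccr7, the next highest dendritic cell marker, 10.3 CPM. Pf4 reached 169 CPM, and Itga2b, the next highest of its list, 23.5 CPM. T and NK cell markers summed to 12.5 to 16.9 CPM in M1, against 3.55 to 7.45 CPM in M0, with 2 of 4 tested genes called higher. The part of these lists in the result was not tested.

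The rest of the pathway was read from lists of genes that are not among the 28. Among the other sterol and isoprenoid genes Coq2, of ubiquinone synthesis, rose with LPS (0.71, adjusted p = 0.0045). Of 10 tested SREBP targets and sterol uptake genes, 2 fell, the lipid phosphatase gene Lpin1 (-2.22, adjusted p = 0.000184) and the lipoprotein receptor gene Scarb1 (-0.75, adjusted p = 0.0231). In the same list 2 rose, Stard3 (1.36, adjusted p = 6.88e-05) and Npc2 (0.89, adjusted p = 0.00087), both genes of sterol carriers at late endosomes or lysosomes. Of all tested genes, 14.1% fell and 15.6% rose with LPS, so 2 of 10 in each direction is not far from those shares. Of 12 genes of the machinery that moves, cuts and retains the SREBPs, 5 fell and 1 rose, beside the same shares of all genes. The protease gene Mbtps1 (-0.87, adjusted p = 0.000895) and the escort gene Scap (-0.79, adjusted p = 0.00734) were among those that fell, and the ubiquitin ligase gene Rnf139 rose (0.71, adjusted p = 0.00235).

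Promoter letters were read for the genes that moved together with LPS. Of the 28 genes, 23 had an entry in the RefSeq promoter table (build GRCm38.p6, 250 bases before to 50 after the start), and Fdps, Fdft1, Sqle, Stard4 and Scd2 had none. The stretches below are the 160 bases before the start, in the direction of the gene, of the genes with the largest called falls that have 1 entry. Capitals mark the CCAAT box, read as CCAAT or as ATTGG on the other strand, and in Hmgcs1 also the sterol regulatory element TCACNCCAC. The stretches lie at chr5:4104698-4104857 on the minus strand (Cyp51), chr13:119690191-119690350 on the plus strand (Hmgcs1), chr5:28071252-28071411 on the plus strand (Insig1), chr8:64733579-64733738 on the minus strand (Msmo1) and chr1:169969206-169969365 on the minus strand (Hsd17b7).
Cyp51: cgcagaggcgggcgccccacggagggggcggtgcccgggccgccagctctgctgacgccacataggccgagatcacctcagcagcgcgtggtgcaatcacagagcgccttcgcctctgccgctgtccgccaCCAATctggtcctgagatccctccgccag
Hmgcs1: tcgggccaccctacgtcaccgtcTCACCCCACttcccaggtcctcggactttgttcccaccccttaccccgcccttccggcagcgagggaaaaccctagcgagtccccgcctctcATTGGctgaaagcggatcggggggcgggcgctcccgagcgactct
Insig1: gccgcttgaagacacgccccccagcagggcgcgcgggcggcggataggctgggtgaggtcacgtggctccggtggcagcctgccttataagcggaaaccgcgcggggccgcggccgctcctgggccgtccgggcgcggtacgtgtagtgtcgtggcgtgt
Msmo1: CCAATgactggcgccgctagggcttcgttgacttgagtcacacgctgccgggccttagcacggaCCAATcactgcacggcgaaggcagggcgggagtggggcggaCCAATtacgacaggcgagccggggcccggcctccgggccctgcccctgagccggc
Hsd17b7: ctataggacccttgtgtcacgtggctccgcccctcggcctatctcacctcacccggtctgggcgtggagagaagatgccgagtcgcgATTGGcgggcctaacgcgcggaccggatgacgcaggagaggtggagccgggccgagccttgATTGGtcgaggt

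Msmo1 holds 3 CCAAT boxes in this stretch, Hsd17b7 holds 2, Cyp51 and Hmgcs1 hold 1 each, and the stretch of Insig1 holds none. CCAAT is the letter run bound by the factor NF-Y, which is known to work beside the SREBPs at sterol genes. Over the whole 300-base windows, searched on both strands, CCAAT occurred in 20 of the 23 genes (87.0%), against 42.8% of 9339 tested genes with an entry and 41.1% of 27025 genes in the table. The GC box GGGCGG occurred in 18 of 23 (78.3%), against 68.2% of the tested genes. The E-box CACGTG occurred in 4 of 23 (17.4%), against 11.6% of the tested genes. The element TCACNCCAC occurred in 1 of 23, in Hmgcs1 at 137 bases before the start, against 1.42% of the tested genes. These shares are a description without a test, and the absence of a letter run says nothing about the factor.

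IL-4 against control medium was compared in the same non-irradiated cells. Of the 28 genes 2 rose and none fell, in a comparison where 9.78% of all tested genes rose, 9.64% fell and 19.4% changed in either direction. Scd2 had 699, 792 and 410 CPM in the M2 libraries, against 190, 131 and 162 CPM in the M0 libraries. Every M2 library was above every M0 library, and the fold change was 1.93 (SE 0.28, adjusted p = 0.00213). Dhcr7 had 68.1, 94.7 and 49.9 CPM in M2, against 38.7, 42.2 and 34.9 CPM in M0, also without overlap (0.82, SE 0.24, adjusted p = 0.0376). The rise of Scd2 was called in 15 of 16 alternative fits and that of Dhcr7 in 6 of 16.

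The median fold change with IL-4 was 0.31 over the 28 genes and -0.01 over all tested genes, and it was positive in 24 of the 28. All 3 M2 libraries lay above all 3 M0 libraries in 4 genes, Ebp, Dhcr7, Acly and Scd2, against 18.7% of all tested genes. Acaca (0.73, adjusted p = 0.115) and the sterol isomerase gene Ebp (0.32, adjusted p = 0.123) had the smallest p after the 2 called genes. The regulators had fold changes near 0: Srebf1 0.16 (adjusted p = 0.584), Srebf2 -0.21 (adjusted p = 0.524) and Insig1 0.16 (adjusted p = 0.612). Hmgcs1 (0.38, adjusted p = 0.374) and Sqle (0.53, adjusted p = 0.251) did not pass either. Fasn (0.39, adjusted p = 0.584) had 49.2, 31.5 and 10.7 CPM in M2, against 18.9, 16.5 and 23.4 CPM in M0, so that 1 M2 library was below all M0 libraries.

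The same M2 library, replicate 3, stood apart in most of the 28 genes. Its median log2 difference from the M0 mean was -0.35, against 0.46 and 0.75 in the other M2 libraries, although its IL-4 response position of 0.957 follows the label. Idi1, for example, had 103, 125 and 29.6 CPM in M2 replicates 1 to 3, against 58.1, 48.4 and 43.2 CPM in M0. Without this library 14 of the 28 genes rose and the median fold change was 0.58, while 10.5% of all genes rose in that fit. Because the library was singled out by its low values in these same genes, the higher count without it is a description and not a test. The 14 were Acat2, Mvd, Idi1, Fdps, Sqle, Lss, Cyp51, Nsdhl, Hsd17b7, Ebp, Dhcr7, Acaca, Fasn and Scd2. Leaving out any other library of the comparison gave 1 called gene. The summed macrophage core markers were 12790 to 15343 CPM in the M2 libraries, against 22935 to 26257 CPM in the M0 libraries, and the neutrophil markers 77.4 to 355 CPM in M2, against 614 to 1172 CPM in M0. Dendritic cell markers summed to 1927 to 2539 CPM in M2, against 204 to 541 CPM in M0, with 2 of 7 tested genes called higher and 3 lower. This sum is mostly Itgax, which reached 2533 CPM over the 27 libraries, while Ccr7, the next highest of the list, reached 10.3 CPM. B lineage markers summed to 31.7 to 63.8 CPM in M2, against 113 to 144 CPM in M0, and erythroid and megakaryocyte markers to 33.5 to 61.9 CPM in M2, against 131 to 202 CPM in M0. The part of these in the result was not tested.

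Among the genes outside the 28, 1 of 10 other sterol and isoprenoid genes rose with IL-4, Pdss1 of ubiquinone synthesis (0.89, adjusted p = 0.0408). Of the 10 SREBP targets and uptake genes, 1 fell, Lpin1 (-1.66, adjusted p = 0.00192). With IL-4 9.78% of all tested genes rose and 9.64% fell, so 1 of 10 in either direction is near those shares. In the cleavage machinery Scap fell (-0.68, adjusted p = 0.0224) and Erlin2 rose (0.41, adjusted p = 0.0389).

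Set directly against each other in non-irradiated cells, M1 and M2 differed in 19 of the 28 genes, all lower in M1. Of all tested genes 19.2% were lower, 19.7% were higher and 38.9% differed in either direction. The median fold change of M1 over M2 was -1.08 for the 28 genes and 0.00 for all tested genes. The largest differences were in Scd2 (-2.17, adjusted p = 0.000278), Sqle (-2.11, adjusted p = 0.000442), Cyp51 (-1.80, adjusted p = 0.00476) and Idi1 (-1.76, adjusted p = 0.0112). Dhcr7 (-1.74), Hmgcs1 (-1.73), Hsd17b7 (-1.53) and Fdps (-1.51) came next. In the M1 libraries Sqle had 21.6, 19.5 and 27.6 CPM, against 114, 139 and 62.1 CPM in the M2 libraries, so that even the low M2 replicate 3 was above every M1 library.

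By role, 4 of 8 mevalonate genes, 9 of 11 genes from squalene onwards, 3 of 4 regulators and 3 of 5 fatty acid genes were lower in M1 than in M2. Insig1 (-1.37, adjusted p = 0.000364) and Srebf2 (-0.72, adjusted p = 0.019) were among them, and Srebf1 (-0.33, adjusted p = 0.188) was not. Fasn was not called (-1.13, adjusted p = 0.0732). In 20 genes all M1 libraries were below all M2 libraries, against 24.3% of all tested genes, and in Ggps1 all were above, against 24.8%. Sqle, Hsd17b7, Dhcr7, Insig1, Acly, Acaca and Scd2 were called in all 16 alternative fits. The count was 9 in a fit of all 27 libraries and 22 in the fit of the 22 libraries that follow their labels. Over all tested genes, the fit of all 27 called 4060 genes, and the fit of the 22 called 42.6%. The 3 comparisons between states share libraries. Outside the 28, the sterol carrier genes Stard3 (1.41, adjusted p = 2.26e-05) and Npc2 (1.10, adjusted p = 0.00012) were higher in M1 than in M2.

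**Figure D3:**
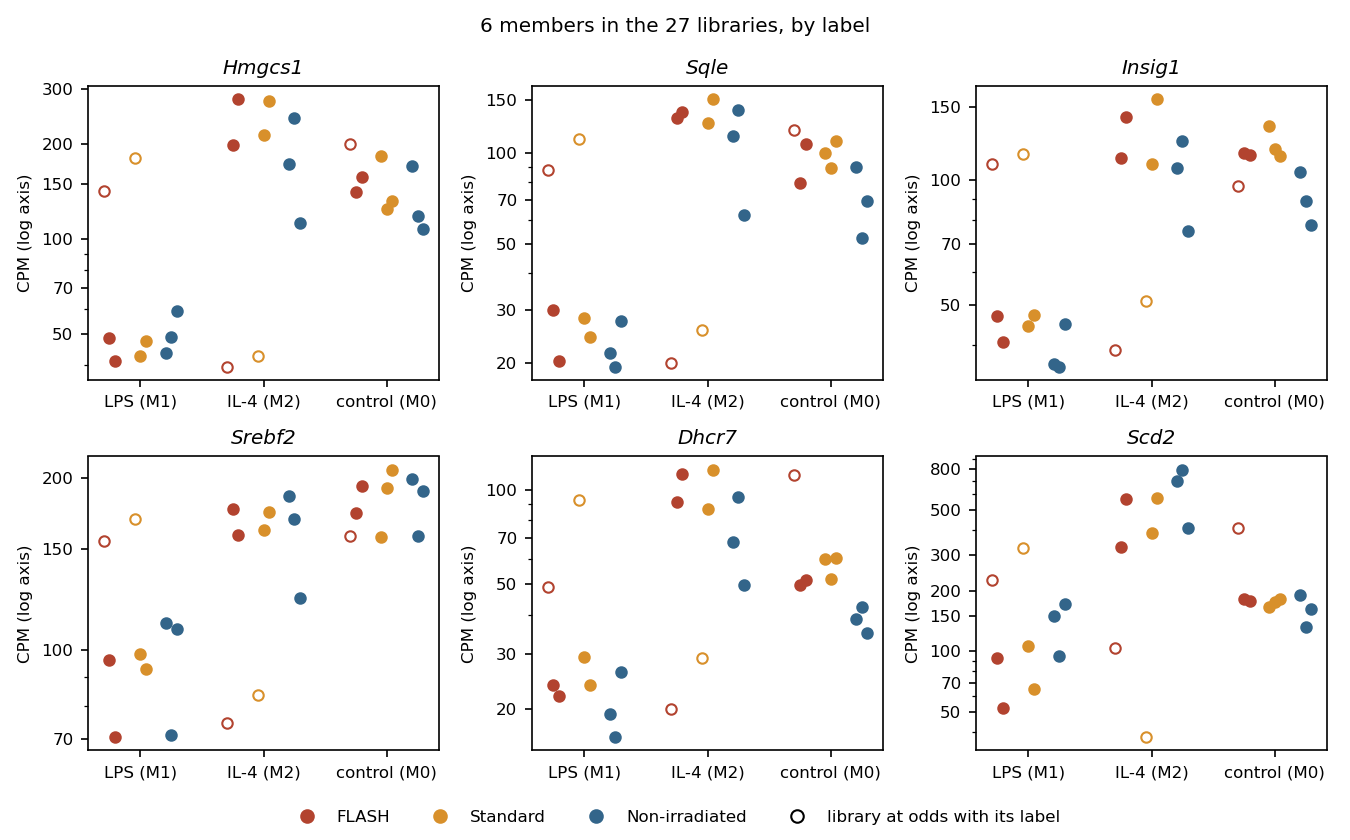
Each point is the CPM of 1 library on a log axis, for 6 genes, by labelled state, with FLASH, standard and non-irradiated libraries from left to right in each state. Open points are the 5 libraries at odds with their labels. Filled points for Sqle lie between 19.5 and 30.2 CPM in M1, between 62.1 and 151 CPM in M2 and between 52.1 and 110 CPM in M0.

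The LPS comparison was repeated inside each irradiation mode, with that mode's own M0 libraries. With all libraries kept, none of the 28 genes was called in FLASH or in standard cells, and limma called no gene at all with LPS in either mode. At an unadjusted p below 0.05 there were 4 of the 28 in each mode, with 11.6% of all tested genes in FLASH and 15.6% in standard cells. The median fold changes were -0.79 in FLASH and -0.67 in standard cells. The library labelled FLASH M1 replicate 1 had 87.9 CPM of Sqle, close to M0 levels, and the library labelled standard M1 replicate 1 had 111 CPM.

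Without the 5 libraries, 17 of the 28 genes fell with LPS in FLASH cells and 16 in standard cells, and none rose. Of all tested genes, 13% fell in FLASH cells and 11.5% in standard cells, and 24.8% and 23.6% changed in either direction. The median fold change of the 28 genes was -1.14 in FLASH and -1.06 in standard cells. Sqle had 30.2 and 20.4 CPM in the FLASH M1 libraries that remain, against 79.3 and 107 CPM in the FLASH M0 libraries (-1.87, adjusted p = 0.000256). In standard cells Sqle had 28.3 and 24.6 CPM in M1, against 99.8, 89.0 and 110 CPM in M0 (-1.89, adjusted p = 0.000101). Both modes thus left a clear gap between the states, as in non-irradiated cells.

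Insig1 fell by 1.39 on the log2 scale in FLASH (adjusted p = 0.000108) and by 1.41 in standard cells (adjusted p = 4.04e-05). Hmgcs1 fell by 1.73 (adjusted p = 0.000349) and by 1.68 (adjusted p = 0.000202), and Srebf2 by 1.15 (adjusted p = 0.000809) and by 0.94 (adjusted p = 0.00192). Srebf1 did not pass in either mode (-0.24 and -0.23, adjusted p = 0.416 and 0.423), and neither did Fasn (-1.29 and -0.78, adjusted p = 0.0525 and 0.218). Scd2 had 92.5 and 52.2 CPM in the FLASH M1 libraries, against 182 and 176 CPM in the FLASH M0 libraries (-1.36, adjusted p = 0.0113). In standard cells Scd2 had 106 and 65.4 CPM in M1, against 166, 175 and 182 CPM in M0 (-1.06, adjusted p = 0.0289). It fell in both irradiated modes and was not called in non-irradiated cells, but the test of that difference did not pass in either mode (interaction -1.12 and -0.82, adjusted p = 0.284 and 0.43).

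Across the 3 irradiation groups, 11 genes fell with LPS in every one: Hmgcs1, Fdft1, Sqle, Cyp51, Msmo1, Hsd17b7, Sc5d, Dhcr7, Srebf2, Insig1 and Stard4. Of the 12 genes that fell in non-irradiated cells, 12 also fell in FLASH and 11 in standard cells. Of all tested genes, 14.1% fell in non-irradiated, 13% in FLASH and 11.5% in standard cells. How many of all genes fell in every group was not counted, so these overlaps have no such share beside them. Mvd, Idi1, Fdps, Tm7sf2 and Scd2 fell in both irradiated modes and did not pass in the fit of the non-irradiated libraries alone. In the fit that gave the irradiated calls, Idi1 (-1.21, adjusted p = 0.0173) and Fdps (-1.09, adjusted p = 0.0139) fell in non-irradiated cells too. Mvd (adjusted p = 0.0954), Tm7sf2 (adjusted p = 0.0964) and Scd2 (adjusted p = 0.579) did not pass there either. Acat2, Mvk, Pmvk, Ggps1, Lss, Nsdhl, Ebp, Srebf1, Acly, Acaca and Fasn were called in none of the 3 comparisons as fitted here. Acly did pass in non-irradiated cells in the fit of the 22 libraries (-0.33, adjusted p = 0.0436). Among the irradiated libraries that follow their labels, 4 M1 libraries lay below 5 M0 libraries in 19 of the 28 genes, against 16.2% of all tested genes. Over all libraries that follow their labels, the 7 M1 libraries lay below the 8 M0 libraries in 16 of the 28 genes, against 7.95% of all tested genes. The groups set against each other share no library across the 3 comparisons. The FLASH and standard calls come from the same fit of the 22 libraries, whose estimate of the spread also uses the non-irradiated libraries. The 3 sets of calls are therefore not independent.

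The IL-4 response inside each mode called none of the 28 genes with all libraries kept, at 0% of all tested genes in FLASH and 0.474% in standard cells. At an unadjusted p below 0.05 there were 0 of the 28 genes in each mode, with 8.9% and 14.9% of all tested genes. Without the 5 libraries, Dhcr7 and Scd2 rose in both modes, with 6.37% of all genes rising in FLASH and 7.06% in standard cells, and 12.1% and 14.4% changing in either direction. Scd2 had 329 and 568 CPM in the FLASH M2 libraries that remain, against 182 and 176 CPM in M0 (1.27, adjusted p = 0.0316). In standard cells it had 384 and 575 CPM in M2, against 166, 175 and 182 CPM in M0 (1.43, adjusted p = 0.00794). Dhcr7 had fold changes of 0.99 (adjusted p = 0.0124) and 0.80 (adjusted p = 0.0209). The 4 irradiated M2 libraries lay above the 5 irradiated M0 libraries in 8 genes (Hmgcs1, Mvd, Sqle, Hsd17b7, Dhcr7, Srebf1, Acly and Scd2), against 13.1% of all tested genes. Scd2 was also the one gene of the 28 in which all 7 M2 libraries that follow their labels lay above all 8 M0 libraries, against 5.99% of all tested genes. Hmgcs1 (0.65 and 0.74, adjusted p = 0.174 and 0.076) and Sqle (0.53 and 0.47, adjusted p = 0.308 and 0.303) did not pass.

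Irradiation itself was compared over the mean of the 3 states. None of the 28 genes was called for FLASH or for standard irradiation against no irradiation, where limma called 7.72% and 7.88% of all tested genes. At an unadjusted p below 0.05 there were 0 of the 28 genes in each comparison, with 21.4% and 22.2% of all genes. The median fold change of the 28 genes was 0.07 for FLASH and 0.11 for standard irradiation, and -0.01 over all genes in both. The 2 comparisons share the non-irradiated libraries. Hmgcs1 had a fold change of 0.12 in both (95% confidence interval -0.71 to 0.95 in both), and Sqle 0.26 (-0.59 to 1.12) for FLASH and 0.37 (-0.49 to 1.22) for standard irradiation. Srebf1 (-0.11 and -0.16), Srebf2 (-0.08 and 0.02), Insig1 (0.22 and 0.35), Fasn (-0.22 and -0.12) and Scd2 (-0.34 and -0.50) were not called either.

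Without the 5 libraries, 2 genes rose for FLASH and 4 for standard irradiation, with 7.46% and 8.16% of all genes rising and 14.5% and 18% changing in either direction. For FLASH these were Tm7sf2, a sterol reductase (0.52, adjusted p = 0.0316), and Msmo1 (0.49, adjusted p = 0.0359). For standard irradiation they were Dhcr7 (0.50, adjusted p = 0.0093), Msmo1 (0.52, adjusted p = 0.0197), Insig1 (0.36, adjusted p = 0.0291) and Tm7sf2 (0.45, adjusted p = 0.0454). With all libraries the fold changes of Tm7sf2 were 0.49 and 0.40 and those of Msmo1 0.43 and 0.53, at adjusted p of 0.25 to 0.423. For FLASH, 2 of 28 genes is close to the share among all genes.

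**Figure D4:**
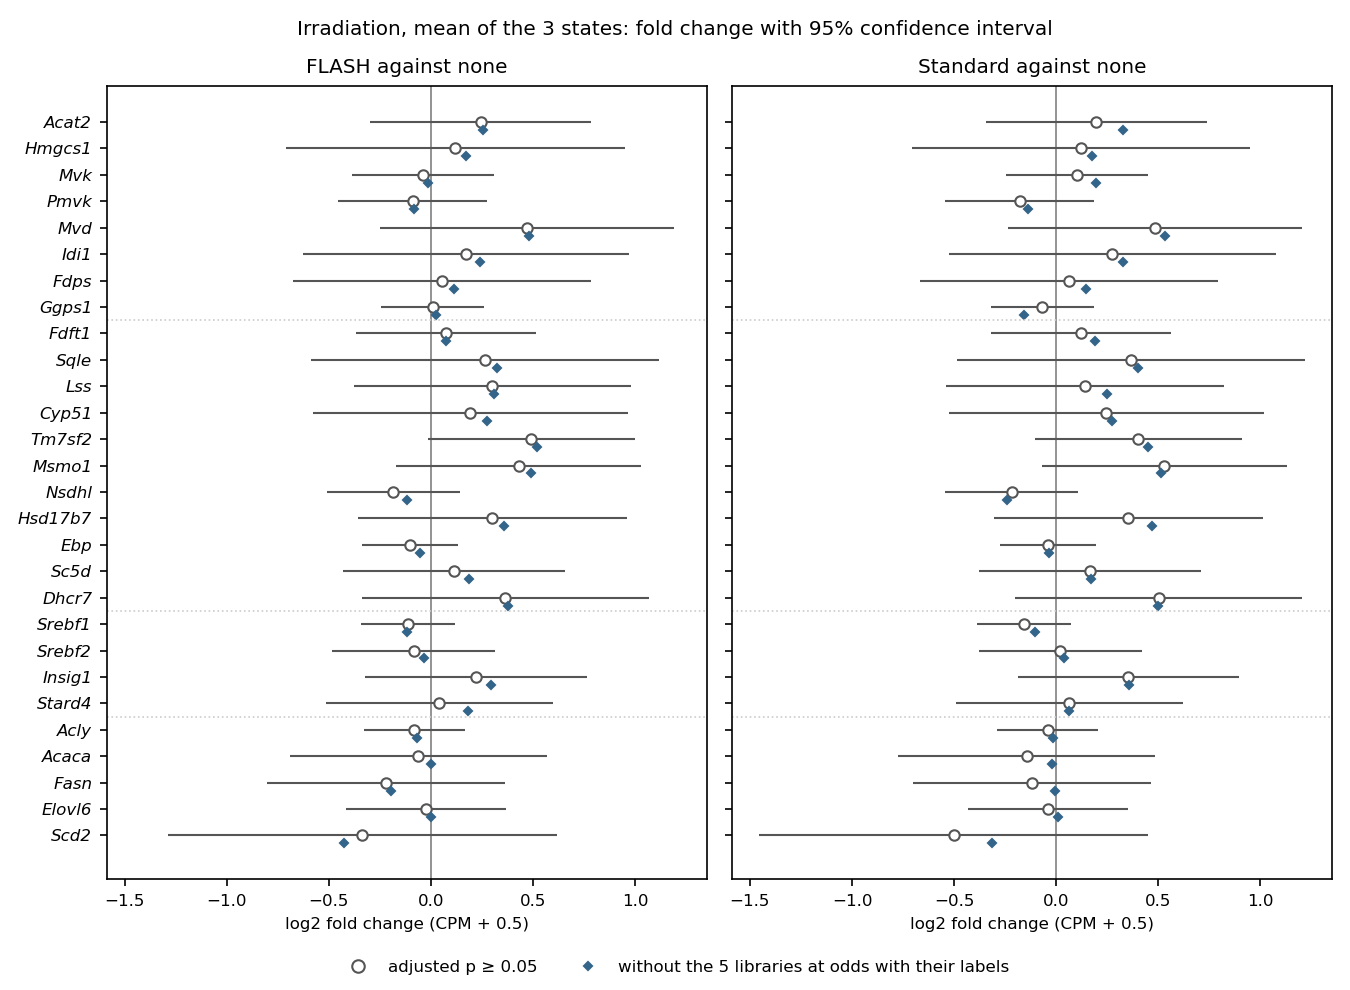
Points are log2 fold changes (CPM + 0.5) of the 28 genes over the mean of the 3 states, with 95% confidence intervals, FLASH against none on the left and standard against none on the right, from all 27 libraries. Diamonds are the values without the 5 libraries at odds with their labels. No gene was called with all libraries, and the medians of the 28 genes were 0.07 and 0.11.

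The difference was followed in each state. In the M0 state Tm7sf2 had 15.6 and 16.8 CPM in the FLASH libraries that follow their labels, against 9.82, 8.64 and 7.05 CPM in the non-irradiated libraries. The standard M0 libraries had 15.5, 13.3 and 17.3 CPM of Tm7sf2, so that both modes were above every non-irradiated library. Msmo1 had 148 and 200 CPM in FLASH M0 and 202, 157 and 175 CPM in standard M0, against 118, 100 and 97.5 CPM in non-irradiated M0. Among the libraries that follow their labels (2 FLASH and 3 standard libraries in M0), all of both modes were above the 3 non-irradiated ones in Mvd, Tm7sf2, Msmo1, Dhcr7 and Insig1, and for standard irradiation also in Idi1. For comparison, 19.4% of all tested genes were higher without overlap in FLASH M0 and 13.9% in standard M0. In M1 and M2 each mode has 2 libraries that follow their labels, set against 3 non-irradiated ones. In M1, Srebf1, Fasn and Scd2 were lower without overlap for FLASH, against 19.2% of all genes. For standard irradiation in M1, Lss, Nsdhl and Srebf1 were lower without overlap, against 19.7%, and Hsd17b7 was higher, against 19.1%. In M2 Hsd17b7 alone of the 28 was higher without overlap, for both modes, against 17.5% of all genes for FLASH and 14.8% for standard irradiation.

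In the test, none of the 28 genes was called in M0, M1 or M2 for either mode with all libraries, nor at an unadjusted p below 0.05. The limma test called 2.11%, 2.53% and 1.1% of all genes for FLASH in M0, M1 and M2, and 2.02%, 2.6% and 1.35% for standard irradiation. Without the 5 libraries 1 gene passed, Tm7sf2 in standard M0 (0.82, adjusted p = 0.045, with 3.32% of all genes rising). In FLASH M0 it had a fold change of 0.90 (adjusted p = 0.0588). In those fits the share of all genes called was 5.32%, 4.92% and 3.31% for FLASH in M0, M1 and M2, and 7.41%, 5.61% and 3.45% for standard irradiation. The medians without the 5 libraries were 0.19 in M0, -0.04 in M1 and 0.27 in M2 for FLASH. For standard irradiation they were 0.18, 0.10 and 0.26 in the same order. With all libraries the M1 medians were 0.34 for FLASH and 0.37 for standard irradiation, and the M2 medians -0.24 for both. The sign thus turned with the libraries at odds with their labels, in M2 for both modes and in M1 for FLASH.

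Whether irradiation altered the response to LPS or IL-4 was tested as an interaction. None of the 28 genes was called in any of the 4 interactions, at an unadjusted p below 0.05 either, in fits that called 0.12% of all genes for FLASH with LPS, 0.0902% for standard irradiation with LPS and 0% for both with IL-4. Without the 5 libraries none was called either, with 0.387% of all genes in each LPS interaction, 0% for FLASH with IL-4 and 0.0228% for standard irradiation with IL-4. The smallest adjusted p among the 28 was 0.792, and 0.284 without the 5 libraries. Scd2 had the largest interaction values with IL-4 (-1.74 for FLASH and -1.71 for standard irradiation), which were -0.66 and -0.50 without the 5 libraries. The median interaction with IL-4 was -0.50 for FLASH and -0.46 for standard irradiation with all libraries, and -0.01 for both without the 5.

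FLASH and standard irradiation were compared directly over the mean of the 3 states. None of the 28 genes was called, and limma called 0% of all tested genes. At an unadjusted p below 0.05 there were 0 of the 28 and 2.96% of all genes. The median fold change was -0.03 with all libraries and also without the 5. Intervals bound what a difference could be: Srebf1 had 0.05 (95% confidence interval -0.19 to 0.28), Srebf2 -0.11 (-0.50 to 0.29), Insig1 -0.13 (-0.68 to 0.41) and Hmgcs1 0.00 (-0.83 to 0.83). For Sqle (-0.95 to 0.75) and Scd2 (-0.79 to 1.12) the intervals were wide. Mvk (-0.14, -0.49 to 0.20), Ggps1 (0.08, -0.18 to 0.33) and Ebp (-0.06, -0.30 to 0.17) had the smallest p, each with an adjusted p that rounds to 1. The fold changes of the 28 genes without the 5 libraries ran from -0.21 (Mvk) to 0.18 (Ggps1).

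Beside the irradiation comparisons, markers of other marrow cells were lower in irradiated cultures. The summed neutrophil markers were 45.3 to 251 CPM in the 9 FLASH libraries and 40.8 to 212 CPM in the 9 standard libraries, against 614 to 1172 CPM in non-irradiated M0, 265 to 390 CPM in non-irradiated M1 and 77.4 to 355 CPM in non-irradiated M2. In the mean of the states 10 of 13 neutrophil markers fell for FLASH and 9 of 13 for standard irradiation, and 10 for each without the 5 libraries. Of the 6 tested B lineage markers 6 and 5 fell, and of the 5 tested mast cell and basophil markers 4 and 3. Dendritic cell markers fell in 3 of 8 for each mode, T and NK cell markers in 3 and 2 of 4, and erythroid and megakaryocyte markers in 2 of 6 for each. Their part in the values of the 28 genes was not tested. Outside the 28 genes, Scap rose for FLASH (0.46, adjusted p = 0.00609) and for standard irradiation (0.42, adjusted p = 0.011), and Lpin1 rose for FLASH (0.76, adjusted p = 0.0303). Their fold changes without the 5 libraries were 0.46 and 0.43 for Scap and 0.70 for Lpin1.

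The 28 genes differed in how far they ranged over the 27 libraries. The highest library had 1.89 times the lowest for Srebf1, 1.96 times for Acly and 2.06 times for Ggps1. The ratio was 7.03 for both Hmgcs1 and Idi1, 7.13 for Dhcr7, 7.73 for Sqle and 8.90 for Fasn, and it was 21.1 for Scd2. Scd2 ranged from 37.6 CPM in the library labelled standard M2 replicate 1 to 792 CPM in non-irradiated M2 replicate 2. Among the libraries that follow their labels its M1 values were 52.2 to 172 CPM, its M2 values 329 to 792 CPM and its M0 values 131 to 190 CPM. Close copies can share reads (Scd1 with Scd2, Acat3 with Acat2, pseudogenes with Fdps), so how reads were split between them is uncertain.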

How the data were processed

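RNA was sequenced in 27 libraries of 9 groups, which were taken from the labels. The deposited table holds one signal value per gene and library on a linear scale, CPM scaled between libraries by the authors; the column sums (929338 to 1072650) are what TMM factors give. Per the submitters' processing notes, kallisto 0.46.1, R 4.0.5 and edgeR 3.36.0 were used, with the human build GRCh38 named for these mouse samples; no coordinates were taken from the table. Of 19070 entries, 1 that carries no symbol (0.0065% of the total) was not used. Depth was recovered from the smallest step between values: 95.3% to 98.1% of the values were whole reads within 0.01 read, so tests made for counts were not used.

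Here, genes that reached 1 CPM in 3 or more libraries were tested with limma 3.58.1 (R 4.3.3, statmod 1.5.0) on log2(CPM + 0.5), with an intensity trend and robust moderation, and the Benjamini-Hochberg adjustment ran over all tested genes of a comparison. The fold change understates the change of low genes. The 3 non-irradiated comparisons were fitted on the 9 non-irradiated libraries (12429 genes), and the 17 others on all 27 (13297 genes). The pipeline was tested on simulated data. The members, the lists and the tests were chosen with earlier results of these data known. In every comparison Srebf1, Srebf2, Insig1, Hmgcs1, Sqle, Fasn and Scd2 were described whatever their p, with up to 8 called members and, below 4 calls, the 4 smallest p; of other lists up to 2 called genes per direction. Some results of those lists are not reported here. Members named beyond that rule were chosen after their values were seen. Alternatives were other pseudocounts, filters, scaling, variance models and library sets, a replicate block, and each library left out in turn. Promoter sequences are from RefSeq (GRCm38.p6). Figures were drawn with matplotlib 3.10.9.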

Additional observations from a re-analysis of the deposited data

How the results depend on the processing

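Of 4120 values of single members under alternative settings, 59 lost the call, 66 gained it and 0 turned a called direction. The other 3995 stayed on their side of the threshold, and 297 of the values changed sign without a call in either fit. Most of the 4120 were not called in the main fit and so had no call to lose. Among the genes called with LPS in non-irradiated cells, Hmgcs1, Sqle, Srebf2 and Insig1 kept the call in 14 of 16 alternatives. Stard4 kept it in 8 and Sc5d in 6, and the others lay between Sc5d and the first 4. A further limit is the small number of libraries, with 3 per group and 2 where a library at odds with its label was left out. In non-irradiated cells the count of 12 with LPS was 1 in a fit of all 27 libraries, 0 with replicates 2 and 3 alone, and 4 to 10 with 1 library left out. The count of 2 with IL-4 was 1 without a filter on low values, 1 without trend and robust moderation, 0 in the fit of all 27 libraries, 1 with replicates 2 and 3 alone, and 1 to 14 with 1 library left out. The count of 19 for M1 against M2 was 9 in the fit of all 27 and 8 with replicates 2 and 3 alone, and 15 to 24 with 1 library left out. The cause of these shifts was not tested. For the counts of 0 with all libraries, leaving out the 5 at-odds libraries gave 2 for FLASH and 4 for standard irradiation over the mean of the states, 1 for standard irradiation in M0, 17 and 16 for LPS in FLASH and standard cells, and 2 for IL-4 in each mode. With replicates 2 and 3 alone, LPS gave 18 and 13 and IL-4 gave 1 and 1. A fit of the compared groups alone gave 3 for standard irradiation in M0. Counts of genes called over the whole table moved as well: in non-irradiated cells they were 3699 with LPS and 2414 with IL-4, against 2315 and 1307 in the fit of all 27, and for irradiation over the mean of the states 1027 (FLASH) and 1048 (standard), against 1910 and 2378 without the 5 libraries. With replicates 2 and 3 alone, the genes called in non-irradiated cells were 1428 with LPS, 577 with IL-4 and 2769 for M1 against M2. Within states the 146 to 346 genes called for irradiation became 436 to 977 without the 5 libraries.

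The replicate numbers were also used as a block. Same-numbered libraries carry a shared code in their titles whose meaning is not given, and their deviations from the group means did not go together: r was over 0.1 in 9 of 108 pairs of all libraries and in 2 of 78 pairs of those that follow their labels. With the replicate block the IL-4 count in non-irradiated cells was 1. Without the 5 libraries and with the block, LPS gave 17 and 15 in FLASH and standard cells, IL-4 gave 1 and 2, and standard irradiation over the mean of the states gave 4.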

Other observations

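Genes that carry sterol out of the cell or turn it into oxysterols did not move as one with the synthesis genes in non-irradiated cells. Of 12 tested LXR targets and oxysterol enzymes, 1 rose and 3 fell with LPS against M0, where 15.6% of all tested genes rose and 14.1% fell, 29.8% in all. Nr1h3, which encodes the sterol sensor LXR alpha, rose (1.89, adjusted p = 0.000141), and the oxysterol-forming enzyme gene Cyp27a1 fell (-1.93, adjusted p = 0.000271). With IL-4 2 rose and 3 fell, where 9.78% of all genes rose and 9.64% fell: the exporter gene Abcg1 rose (1.17, adjusted p = 0.00148), and Apoe (-2.02, adjusted p = 0.0179) and Cyp27a1 (-1.74, adjusted p = 0.00104) were among those that fell. The median log2 fold change of the list was -0.06 with LPS and -0.19 with IL-4. All p-values are from limma with adjustment over all tested genes.

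Among 20 tested other fatty acid genes, 2 rose and 4 fell with LPS, and 1 rose with IL-4, beside the same shares of all genes. The desaturase-family gene Fads3 (-1.51, adjusted p = 0.026) and the acyl-CoA synthetase gene Acsl3 (-0.79, adjusted p = 0.0237) were among those that fell with LPS, while the synthetase genes Acsl4 (0.57, adjusted p = 0.033) and Acsl5 (0.46, adjusted p = 0.00899) rose. Over the mean of the states, Fads1, a desaturase of polyunsaturated fatty acids, fell for FLASH (-0.53, adjusted p = 0.0235) and for standard irradiation (-0.51, adjusted p = 0.0275), and its values without the 5 libraries were -0.50 and -0.52. Me1, the malic enzyme that supplies NADPH, rose for FLASH (0.56, adjusted p = 0.0242, and 0.60 without the 5 libraries). In these comparisons 7.72% of all genes changed for FLASH and 7.88% for standard irradiation.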
